A study of Drosophila melanogaster with 6 samples.

Results

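The proteasome genes of Drosophila melanogaster were examined in ATAC-seq peak lists of midgut progenitor cells, with and without knock-down of the linker histone H1. ATAC-seq uses the Tn5 transposase to cut and tag open DNA, so that a peak marks a stretch of accessible chromatin. The members were the 48 protein-coding genes whose symbols begin with Prosalpha, Prosbeta, Rpn or Rpt, out of 13946 protein-coding genes on placed chromosomes of the dm6 build. They fell into 32 general subunits and 16 paralogues, the latter being those whose symbols end in T, T1, T2, R, R1 or R2. A gene counted as called in a sample when a deposited peak overlapped, by at least 1 bp, the 500 bp on either side of one of its ends.

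All flies were females, 3 days old at the start, held for 2 days at 18 °C and then for 4 days at 29 °C on poor food. The 3 control samples carried the temperature-sensitive escargot driver with GFP (esgts, UAS-GFP), and the 3 H1 RNAi samples carried in addition UAS-H1 RNAi 1, a single construct. The driver is active in intestinal stem cells and in enteroblasts, their committed daughters, so each sample mixes both cell types. Each replicate, A, B and C in each group, was a separate collection of 70 guts from which 50000 to 100000 GFP-positive cells were sorted. In such bulk samples, fewer cells with an open gene end and less open DNA per cell cannot be told apart.

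The proteasome is the large protease that degrades proteins tagged with ubiquitin. Its core particle is a barrel of alpha rings, which gate the entrance, and beta rings, which hold the proteolytic sites. A regulatory particle caps the barrel. Its base contains the Rpt ATPases, which unfold substrates, together with scaffold subunits and ubiquitin receptors, and its lid contains the deubiquitinase Rpn11. Drosophila also has paralogues of many subunits, several of which are known to be expressed in the male germline.

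The lists differed in length. Replicates A, B and C held 6142, 10872 and 8602 peaks among controls, and 6564, 9827 and 7261 with H1 RNAi. The background solved from the lists was highest in control B, at 20.7 fragments per base, and lay between 4.83 and 10.1 in the other 5 samples. Of 7 progenitor markers, 6 (esg, N, Sox21a, Sox100B, klu and E(spl)mbeta-HLH) were called in all 6 samples, and Delta in 3 controls and 1 H1 RNAi sample. Of 4 enteroendocrine markers, pros and the hormone gene NPF were each called in controls B and C and H1 RNAi B, and the hormone genes Tk and AstA in none. Of 4 visceral muscle markers, how was called in all 6, Mhc in control B alone, and Mlp60A and Zasp66 in none. Among enterocyte markers, nub, Jon65Ai and Amy-p were called in all 6 and Myo31DF in 5, so open gene ends did not separate progenitors from enterocytes. Both groups carried calls at markers of these other cell types, and their part in the proteasome results was not tested.

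General subunits had a gene-end peak more often than the paralogues in every sample. Of the 32 general subunits, 9, 28 and 21 were called in controls A, B and C, and 18, 26 and 9 in H1 RNAi A, B and C. Over all protein-coding genes the share called was 29%, 53.4% and 45.8% in the controls and 35.3%, 46% and 30.3% in the H1 RNAi samples. The general subunits thus lay 34.1 and 19.9 percentage points above all genes in controls B and C and 21.0 and 35.3 points above in H1 RNAi A and B. In the remaining pair, control A and H1 RNAi C, the difference from all genes was −0.894 and −2.17 points. The position relative to all genes depended on the setting. Peaks with a fold of at least 4 put general subunits below all genes in 4 of 6 samples (differences of −8.43 to 17.4 points). Giving each peak only to the gene with the end nearest to its summit, a setting added after seeing the data, also put them below in 4 of 6, with differences of −14.1 to 17.7 points and a mean of −2.16.

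Of the 16 paralogues, 2, 3 and 2 were called in controls A, B and C, and 1, 2 and 1 in H1 RNAi A, B and C. Their share was below that of all genes in 6 of 6 samples, with differences of −16.5 to −34.6 points, and it was below in 6 of 6 under each of the 7 alternative settings for peaks and windows. The general share exceeded the paralogue share in 6 of 6 samples, by 46.4 ± 22.8 percentage points (SD, n = 6), with 15.6 in control A as the smallest gap and 68.8 in control B and H1 RNAi B as the widest.

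The groups did not separate. The share of general subunits called was 60.4% ± 30.03 (SD, n = 3) without RNAi and 55.2% ± 26.6 (SD, n = 3) with it, a difference of −5.21 percentage points. All genes differed by −5.54 points, from 42.7% ± 12.5 (SD, n = 3) to 37.2% ± 8.03 (SD, n = 3). Paralogues differed by −6.25 points, or 1 gene of 16, from 14.6% ± 3.61 (SD, n = 3) to 8.33% ± 3.61 (SD, n = 3). In each case the ranges of the groups overlapped or met. Samples of the same group differed by more than the group means did, with 9 general subunits called in control A against 28 in control B.

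List length moved with the number of general subunits called, and its part was examined only by cutting the lists to equal length. The 3 longest lists, control B, H1 RNAi B and control C, had the most general subunits, and the shortest, control A, tied with H1 RNAi C for the fewest. The order was not strict, since H1 RNAi A had 18 calls in a shorter list than H1 RNAi C with 9. With the top 6142 peaks of each list, 9, 19 and 15 general subunits were called in controls A, B and C. In H1 RNAi A, B and C they were 17, 14 and 6. The shares of all genes were then 29.0%, 35.2% and 34.0% in the controls and 33.1%, 29.7% and 24.9% with H1 RNAi. The part of list length in the result was not otherwise tested. Of the 28 general subunits called in control B, 9 were also called in control A and 9 in H1 RNAi C, or 32.1%, where the share over all genes called in control B was 54.0% and 56.0%. In control C the share was 71.4% (all genes 82.7%), and in H1 RNAi A it was 60.7% (all genes 64.9%). H1 RNAi B recovered 89.3% of them, against 82.2% of all genes.

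**Figure D1:**
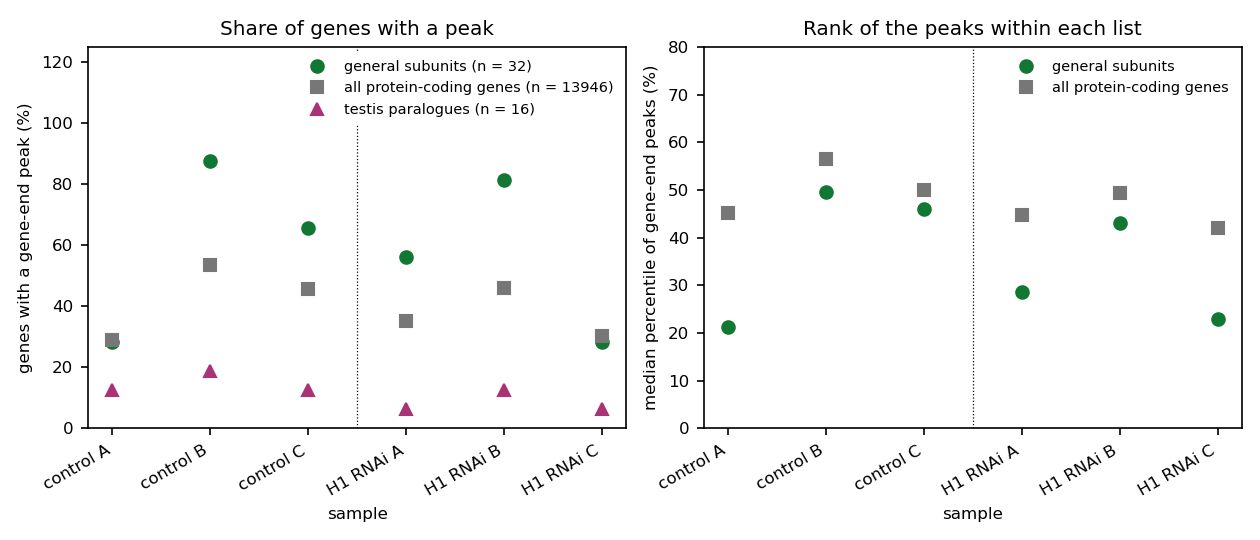
The left panel plots the percentage of genes with a gene-end peak in each of the 6 samples for the 32 general subunits, the 16 testis paralogues and all protein-coding genes, and the right panel the median percentile of those peaks within their own list. General subunits range from 28.1% to 87.5% and paralogues from 6.25% to 18.8%, while the peaks of general subunits rank below those of all genes in all 6 samples.

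The peaks at general subunits had lower median ranks in their lists than those of all genes called. The percentile used here is the share of peaks of the same list with a lower −log10 q, the authors' own significance value. Median percentiles of the general subunits called were 21.3, 49.7 and 46.0 in the controls and 28.6, 43.1 and 22.9 in the H1 RNAi samples. The medians over all genes called were 45.1, 56.6 and 49.9 in the controls and 44.7, 49.4 and 42.1 in the H1 RNAi samples, higher in all 6 lists. Of the 111 calls of general subunits over the 6 samples, 35 (31.5%) ranked below the 25th percentile and 49 (44.1%) had a −log10 q under 10. Of all 33435 calls over all genes, 22.6% ranked below the 25th percentile and 38.2% had a −log10 q under 10. Coverage at the summit ran from 16 to 283 fragments with a median of 35.

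Across samples, 5 general subunits (15.6%) were called in all 6, against 22.3% of all genes. Only 3 of the 32 (9.38%) were called in none, against 43.2% of all genes. The other 24 were called in 1 to 5 samples. Of the paralogues, 13 of 16 (81.2%) were called in none and 1 was called in all 6. The median number of samples with a call was 3.5 for general subunits, 0 for paralogues and 1 for all genes.

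No member was called in 3 of 3 samples of one group and 0 of 3 of the other. Over all genes, 31 (0.222%) were called in 3 controls and no H1 RNAi sample, and 5 (0.0359%) in 3 H1 RNAi samples and no control. A two-sided Fisher exact test on 3 against 3 samples cannot give a p below 0.1, and after Benjamini-Hochberg adjustment over the 13946 genes the smallest adjusted p was 1. The number of genes with an unadjusted p under 0.05 was 0. More controls than H1 RNAi samples carried a call at 10 general subunits (31.2%, all genes 19.3%) and 2 paralogues, and fewer at 6 general subunits (18.8%, all genes 6.21%) and 0 paralogues. The remaining 16 general subunits (50%) were called equally often in both groups, against 74.5% of all genes. These 16 include the 3 called in no sample (9.38%), and the 74.5% includes the 43.2% of all genes called in none. Only genes called in 1 to 5 samples can differ between the groups. They were 75% of general subunits and 34.5% of all genes, so these shares do not show that general subunits differ more often.

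**Figure D2:**
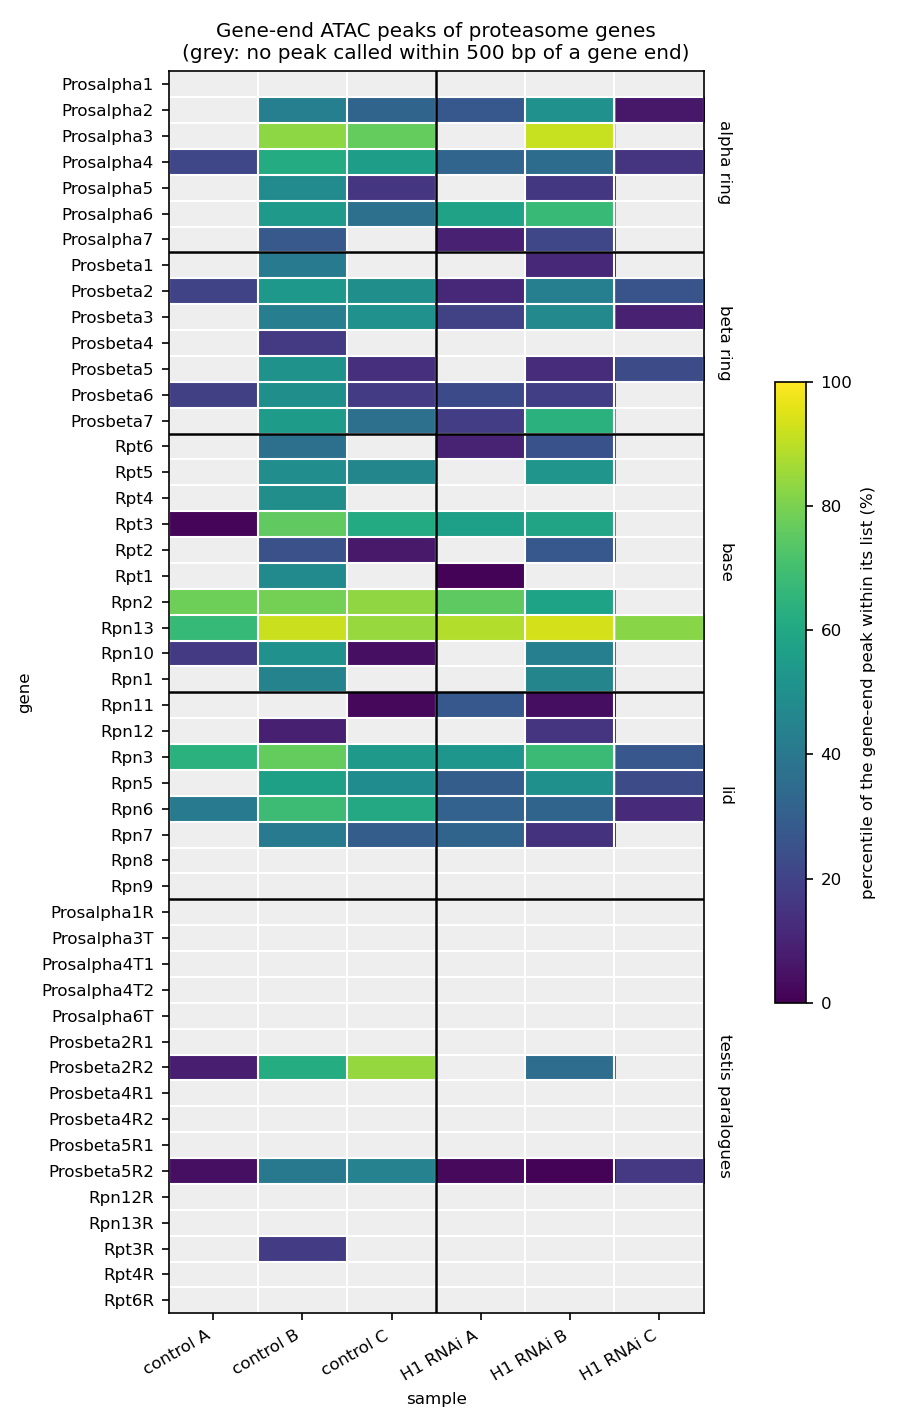
Each row is a proteasome gene and each column a sample, with colour giving the percentile of its highest-ranked gene-end peak within that sample's list and grey marking no peak within 500 bp of a gene end. The 5 general subunits called in all 6 samples stand out as unbroken rows, and 13 of the 16 paralogues are grey throughout.

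In the alpha ring, 1, 6 and 5 of 7 general subunits were called in controls A, B and C and 4, 6 and 2 in the H1 RNAi samples. The alpha-ring subunit Prosalpha4 (chromosome X, 16276270 to 16277587) was called in all 6, at percentiles 21.3, 61.7 and 55.5 in the controls and 32.5, 35.2 and 15.4 in the H1 RNAi samples. Its summits lay nearer to the end of a neighbour, kat80 or eas, in 5 of the 6 samples. The values of controls B and C are from the end near eas, and the others from the end near kat80. Prosalpha2 (chromosome 3R, 12431321 to 12432556) was called in 5 samples, at percentiles 43.3 and 32.3 in controls B and C and 27.5, 50.7 and 6.51 in H1 RNAi A, B and C.

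Prosalpha6 (chromosome 2L, 10221351 to 10222546) was called in controls B and C at percentiles 54.0 and 36.8 and in H1 RNAi A and B at 57.7 and 67.7. Prosalpha3 (chromosome 2R, 20994900 to 20996118) was called at high percentiles, 82.9 and 76.5 in controls B and C and 91.7 in H1 RNAi B. Those summits lay 2016 to 2022 bp from Prosalpha3, in a wide peak over CG10543 whose edge reached the Prosalpha3 window. The merged region (chromosome 2R, 20996215 to 20998930) was called in all 6 samples. In control A and H1 RNAi A and C, which had no call at Prosalpha3, the nearest peak lay 520 to 612 bp from the gene, just outside the window.

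Prosalpha5 (chromosome 2R, 17412767 to 17413769) had summits 2, 33 and 35 bp from its own end in controls B and C and H1 RNAi B, at percentiles 48.2, 15.8 and 16.4. Prosalpha7 (chromosome 2R, 9846636 to 9847836) was called in control B at percentile 27.8 and in H1 RNAi A and B at 9.18 and 21.2. The control B value is from the opposite end of Prosalpha7 to the others. Neither Prosalpha5 nor Prosalpha7 was called in control A or H1 RNAi C. Prosalpha1 (chromosome 2R, 7827303 to 7828678) was called in none, and its nearest peak lay 608 to 14494 bp away.

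In the beta ring, 2, 7 and 5 of 7 were called in the controls and 4, 6 and 3 in the H1 RNAi samples. The proteolytic subunits are Prosbeta1 (caspase-like), Prosbeta2 (trypsin-like) and Prosbeta5 (chymotrypsin-like). Prosbeta2 (chromosome 3L, 14999951 to 15001319) was called in all 6, at percentiles 20.4, 53.2 and 49.9 in the controls and 11.3, 43.1 and 25.8 in the H1 RNAi samples. The summit lay nearer to mRpL39, a mitochondrial ribosomal protein gene, in all 6.

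Prosbeta5 (chromosome 2R, 10819978 to 10821178) was called in controls B and C at percentiles 51.2 and 13.8 and in H1 RNAi B and C at 12.6 and 23.3. The H1 RNAi B value is from the opposite end of Prosbeta5 to the others. Prosbeta1 (chromosome 2R, 16013805 to 16014787) was called in control B at percentile 41.1 and in H1 RNAi B at 11.5, with Rrp42 nearer to the summit in both. The proteolytic subunits thus ranged from 2 to 6 samples with a call.

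Among the other beta subunits, Prosbeta3 (chromosome 3R, 9005313 to 9006226) was called in controls B and C at 42.8 and 50.6 and in H1 RNAi A, B and C at 19.3, 47 and 9.0, with Iru nearer in all 5. Prosbeta6 (chromosome 3L, 16609400 to 16610418) was called in the 3 controls at 18.8, 50.0 and 18.0 and in H1 RNAi A and B at 22.6 and 18.7, with CG4098 nearer in all 5. Prosbeta7 (chromosome 3R, 5357012 to 5358364) was called in controls B and C at 55.0 and 36.8 and in H1 RNAi A and B at 18.2 and 63.9. Its summits lay inside the gene in all 4, 168 to 211 bp from its end, and its own end was the nearest. Prosbeta4 (chromosome 2L, 16731180 to 16732133) was called in control B alone, at 17.2, with the summit 12 bp inside its end.

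In the base, 4, 10 and 6 of 10 were called in controls A, B and C and 5, 8 and 1 in the H1 RNAi samples, so the base had the lowest count of the 4 subcomplexes in H1 RNAi C. Group means for the base were 66.7% in controls and 46.7% in H1 RNAi samples, with overlapping ranges. The other subcomplexes overlapped too, at 57.1% in both groups for the alpha ring and 66.7% and 61.9% for the beta ring. The lid went the other way, at 50% in controls and 58.3% with H1 RNAi. All genes stood at 42.7% and 37.2%. The Rpt ATPases form a ring that pulls substrates into the core. Rpt3 (chromosome X, 11125101 to 11126785) was called in the 3 controls at 1.88, 75.5 and 61.0 and in H1 RNAi A and B at 56.5 and 58.5, mostly with CG11122 nearer. Rpt6 (chromosome X, 21316052 to 21317663) was called in control B at 36.9 and in H1 RNAi A and B at 9.5 and 25, with its own end nearer in all 3.

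Rpt5 (chromosome 3R, 23752876 to 23754623) was called in controls B and C at 49.1 and 46.0 and in H1 RNAi B at 52.2, with RanBP3 nearer in all 3. Rpt2 (chromosome 3R, 23929873 to 23931558) was called in controls B and C at 24.6 and 6.82 and in H1 RNAi B at 27.4. The H1 RNAi B value is from a peak at the other end of Rpt2. Rpt1 (chromosome 2R, 7652440 to 7653954) was called in control B at 47.6 and in H1 RNAi A at 1.17, with its own end nearer in both. Rpt4 (chromosome X, 6289470 to 6291245) was called in control B alone, at 49.3. No Rpt gene was called in all 6 samples, and none was called in H1 RNAi C.

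The scaffold subunit Rpn2 (chromosome 3R, 29153524 to 29157255) was called in 5 samples, at 77.8, 79.2 and 83.2 in the controls and 75.1 and 58.1 in H1 RNAi A and B. In 4 of those samples the summit lay nearer to rdog. The H1 RNAi B value is from a peak at the other end of Rpn2. Rpn1 (chromosome 3L, 19915051 to 19918160), the scaffold that also docks ubiquitin shuttles, was called in control B at 44.9 and H1 RNAi B at 45.7, with its own end nearer in both.

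The ubiquitin receptor Rpn13 (chromosome 2R, 13958545 to 13960404) had the highest-ranked peaks of the 5 genes called in all 6, at 67.1, 91.9 and 84.7 in the controls and 88.6, 93.5 and 82.1 in the H1 RNAi samples. Those summits lay 853 to 892 bp from Rpn13 and 397 to 436 bp from AGO1, an Argonaute gene, in every sample. The other receptor, Rpn10 (chromosome 3L, 21537000 to 21538582), was called in the 3 controls at 16.9, 50.7 and 4.13 and in H1 RNAi B alone at 43.1. The control B value is from another peak, with its summit 1279 bp from Rpn10 and 1 bp from VhaM9.7-b. The merged region of that peak (21539074 to 21540279) was called in 3 controls and 2 H1 RNAi samples. The region at the opposite end (21536811 to 21537276) was called in 3 controls and 1 H1 RNAi sample. With a −log10 q of at least 10, Rpn10 was called in 1 control and 1 H1 RNAi sample, and with a fold of at least 4 in 0 controls and 1 H1 RNAi sample.

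In the lid, 2, 5 and 5 of 8 were called in the controls and 5, 6 and 3 in the H1 RNAi samples. Rpn3 (chromosome 2L, 19051790 to 19053681), a PCI-domain scaffold subunit, was called in all 6, at 63.9, 76.5 and 54.0 in the controls and 52.6, 68.3 and 27.2 in the H1 RNAi samples, with CG10492 nearer in all 6. Rpn6 (chromosome 2R, 14750166 to 14752910), another PCI-domain subunit, was called in all 6, at 41.2, 68.4 and 60.5 in the controls and 31.3, 32.3 and 12.0 in the H1 RNAi samples. Its summits lay inside Rpn6, 459 to 566 bp from its end, but nearer to the end of ave, which overlaps it. These distances straddle the edge of the window: they were 518, 566 and 509 bp in the controls and 479, 459 and 468 bp in the H1 RNAi samples. With the summit itself required inside the window, Rpn6 was thus called in 0 controls and 3 H1 RNAi samples, as were 17 of all genes (0.122%).

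The PCI-domain subunit Rpn5 (chromosome 3R, 5789493 to 5791569) was called in controls B and C at 57.0 and 48.6 and in H1 RNAi A, B and C at 29.6, 50.0 and 22.9. The values of control C and H1 RNAi A are from the opposite end of Rpn5 to the others. Rpn7 (chromosome 3R, 22460662 to 22462054) was called in controls B and C at 41.6 and 29.3 and in H1 RNAi A and B at 32.2 and 14.8. Rpn12 (chromosome 3L, 16583028 to 16584022) was called in control B at 8.80 and H1 RNAi B at 15.0. Those Rpn12 calls were different peaks, at opposite ends of the gene. Rpn5 was called in 1 H1 RNAi sample more than controls, and the other pair equally often in both groups.

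The deubiquitinase Rpn11 (chromosome 2L, 5058404 to 5059790) was called in control C at 2.31 and in H1 RNAi A and B at 27.5 and 3.85, with its own end nearer in all 3. It was the only general subunit called in some samples that was not called in control B. Its partner Rpn8 (chromosome 2R, 24400028 to 24404527) was called at an end in none, although in all 6 samples a peak lay inside it, 1886 to 2097 bp from its nearer end, at percentiles of 77.5, 94.8 and 92.5 in the controls and 83.6, 87.7 and 81.2 in the H1 RNAi samples. Rpn8 overlaps Slik, so the peak cannot be assigned to either. Rpn9 (chromosome 3R, 23731375 to 23733462) was called in none, with the nearest peak 793 to 858 bp away in every sample, just outside the window.

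Among the paralogues, Prosbeta5R2 (chromosome 2L, 17990418 to 17991951) was the exception. It was called in all 6 samples, at percentiles 4.12, 40.3 and 44.5 in the controls and 2.45, 1.10 and 16.7 in the H1 RNAi samples. The summits lay inside the gene in all 6, 248 to 641 bp from its end, and the end of the next gene, CG5681, is 1799 bp away. Coverage at the summit was 19, 77 and 48 fragments in the controls and 18, 15 and 39 in the H1 RNAi samples. With a −log10 q of at least 10 it was called in 2 controls and 0 H1 RNAi samples, and with lists of equal length in 2 controls and 1 H1 RNAi sample.

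Prosbeta2R2 (chromosome 3R, 5217751 to 5219528) was called in the 3 controls at 8.52, 62.0 and 84.2 and in H1 RNAi B alone at 35.7. In all 4 samples the summit lay nearer to cno, the gene of an adherens junction protein. The merged region (chromosome 3R, 5215385 to 5217536) was called in all 6 samples. The nearest peak lay 215 to 261 bp from Prosbeta2R2 in the samples with a call and 1175 and 1180 bp from it in H1 RNAi A and C. With lists of equal length it was called in 3 controls and 0 H1 RNAi samples, the only member to separate the groups there (63 of all genes, 0.452%), and with a window of 250 bp in 1 of each. Without H1 RNAi B, both Rpn10 and Prosbeta2R2 were called in the controls alone, as were 174 of all genes (1.25%), against 31 with all samples. Rpt3R (chromosome 3R, 9754735 to 9756510) was called in control B alone at 17.7, with Tti1 nearer to that summit. That was the higher-ranked of 2 peaks, and the other (9756428 to 9756665) lay at the opposite end of Rpt3R. With peaks nearer to another gene left out, Rpt3R kept a call.

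The other 13 paralogues had no gene-end peak in any sample: Prosalpha1R, Prosalpha3T, Prosalpha4T1, Prosalpha4T2, Prosalpha6T, Prosbeta2R1, Prosbeta4R1, Prosbeta4R2, Prosbeta5R1, Rpn12R, Rpn13R, Rpt4R and Rpt6R. Their nearest peaks lay 3718 to 47410 bp away. Prosbeta5R1 (chromosome 2R, 23308654 to 23309816), the second paralogue of the chymotrypsin-like subunit, was 25146 to 47410 bp from the nearest peak. Prosalpha3T (chromosome 3R, 31122527 to 31123415) was 3967 to 12975 bp from it, and Prosalpha6T (chromosome 2L, 13232039 to 13233058) was 9253 to 12098 bp from it. Prosbeta4R1 and Prosbeta4R2 are neighbours on chromosome 2L and share their surroundings, so they are not independent.

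Prosalpha1 and Prosalpha1R lie 1735 bp apart on chromosome 2R and neither was called. Their neighbours phr and CG18853 each end 16 bp away. Reads could be shared between the copies, so these values are uncertain: the handling of reads that map to several places is not given in the sources used here.

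Paralogues lay in less occupied surroundings. The median distance from a gene to the nearest peak was 18666, 7995.5 and 6581.5 bp in the controls and 16480, 12474 and 17165 bp in the H1 RNAi samples for paralogues. For general subunits it was 3427, 0 and 12 bp in the controls and 170.5, 0 and 2079.5 bp in the H1 RNAi samples, and for all genes 3426, 31 and 534 bp and 2002.5, 521.5 and 2827 bp. Over 10 kb from any peak were 6 to 14 of the 16 paralogues and 0 to 6 of the 32 general subunits, or 37.5% to 87.5% and 0 to 18.8% per sample, against 12.8% to 29.2% of all genes. Of 23 male germline genes, 16 (69.6%) were called in no sample, against 43.2% of all genes. The share of the list called was 20.3% ± 6.64 (SD, n = 3) without RNAi and 18.8% ± 9.05 (SD, n = 3) with it. Over all genes it was 42.7% ± 12.5 (SD, n = 3) without RNAi and 37.2% ± 8.03 (SD, n = 3) with it. The median distance of the list to the nearest peak was 3655 to 6419 bp per sample, shorter than that of the paralogues in all 6. Of the list, mia and fzo were called in all 6, bol in 5, topi, Mst87F and ocn in 3 each, and nht in 1. By coordinates fzo lies inside cnc.

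**Figure D3:**
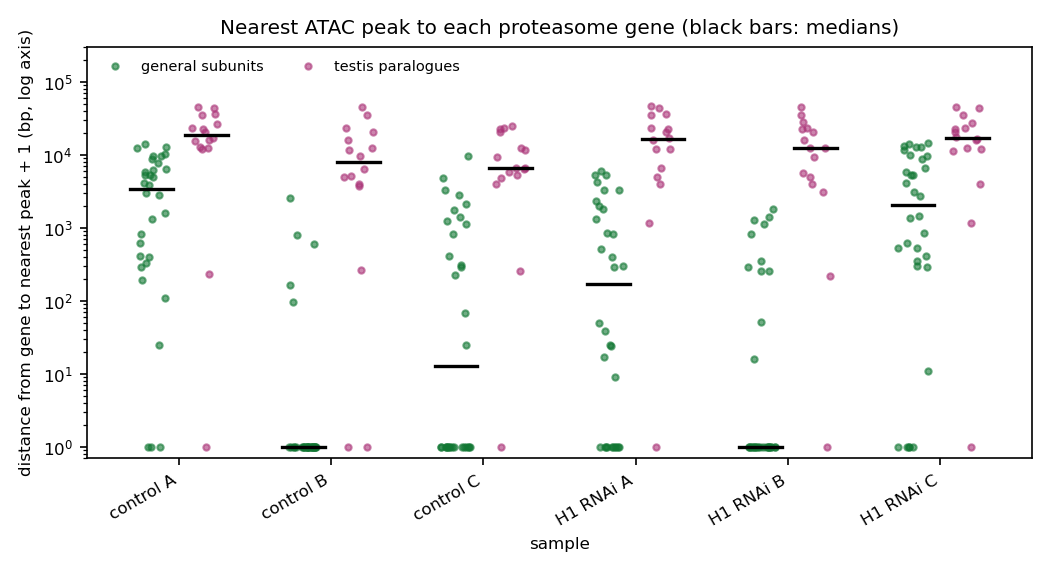
Each point is a proteasome gene, placed at the distance in bp to its nearest peak plus 1 on a log axis, for each of the 6 samples, with black bars at the medians. Paralogue medians run from 6581.5 to 18666 bp, while those of general subunits run from 0 to 3427 bp.

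Neighbouring genes were close to general subunits. The median gap to the end of the next gene was 91 bp for general subunits, 371 bp for paralogues and 193 bp for all genes. Another gene ended within 500 bp of 31 of 32 general subunits (96.9%), 8 of 16 paralogues (50%) and 70.9% of all genes. Among all genes, those with such a neighbour were called in 33.3% to 62.2% of cases per sample, against 18.7% to 31.9% for those without. By sample, the former stood at 33.3%, 62.2% and 53.0% in the controls and 41.0%, 53.8% and 33.9% with H1 RNAi. The 31 general subunits with such a neighbour stood at 29.0%, 87.1% and 67.7% in the controls and 54.8%, 83.9% and 29.0% with H1 RNAi. The 8 paralogues with such a neighbour gave 0 to 2 calls per sample, and the 8 without gave 1 call in each sample, that of Prosbeta5R2.

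By the highest-ranked peak of each call, the summit was nearer to the end of the subunit in only 36 of the 111 general calls (32.4%). In the others it was as near or nearer to the end of another protein-coding gene. Of the 111 peaks, 67 touched the gene itself. Of 11 paralogue calls, 6 had the summit nearer to the paralogue, all of them at Prosbeta5R2. When every peak was given only to the gene whose end was nearest to its summit, 2, 17 and 8 general subunits kept a call in the controls and 4, 13 and 2 in the H1 RNAi samples. That was 41.4% of their calls, against 65.4% of the calls of all genes. Here any peak at a gene end could keep the call, so this share is not the same measure as the 32.4%. The general share then exceeded the paralogue share by 16.7 percentage points on average, and the smallest of the 6 differences was 0.

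**Figure D4:**
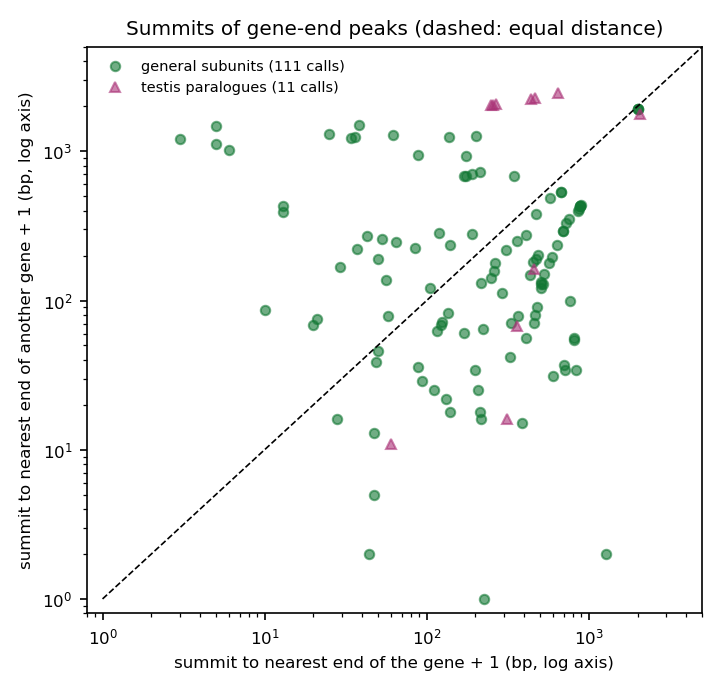
Each point is a gene-end peak call, placed by its highest-ranked peak. The horizontal log axis gives the distance in bp plus 1 from the summit to the nearest end of the proteasome gene. The vertical log axis gives that to the nearest end of another protein-coding gene. Points under the dashed line have a neighbour nearer, which holds for most of the 111 general calls, while 6 of the 11 paralogue calls lie above it.

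Genes that work with the proteasome were called more often than general subunits in 5 of 6 samples, all but control B. Of 21 proteasome-associated genes, 13, 17 and 17 were called in the controls and 15, 18 and 11 in the H1 RNAi samples. In all 6 samples 10 (47.6%) were called, against 22.3% of all genes. In percent these were 61.9, 81.0 and 81.0 in the controls and 71.4, 85.7 and 52.4 with H1 RNAi, where general subunits stood at 28.1, 87.5 and 65.6 and at 56.2, 81.2 and 28.1. The associated genes exceeded all genes in 6 of 6 samples. Among the regulators, cnc, the fly relative of mammalian Nrf factors that drives proteasome genes, its inhibitor Keap1 and its partner maf-S were called in all 6. The shuttle factors Rad23, Ubqn and rngo, which carry ubiquitinated proteins to the proteasome, were called in all 6, as were the deubiquitinase Uch-L5, the ubiquitin gene Ubi-p5E, the ubiquitin-activating enzyme Uba1 and the segregase TER94. More controls than H1 RNAi samples carried a call at 5 of the 21 (23.8%, all genes 19.3%), and fewer at another 5 (23.8%, all genes 6.21%). Every 1 of the 21 had a call in some sample, while 43.2% of all genes had none and could not differ. In the order of those 2 shares: The former were the assembly chaperone Pomp and the segregase cofactor Npl4 (3 controls and 2 H1 RNAi samples each), and the activator REG, the regulator PI31 and the ubiquitin fusion gene RpL40 (2 and 0 each). The latter were the ubiquitin gene Ubi-p63E (2 controls and 3 H1 RNAi samples), the lid component Sem1 (1 and 2), and the ubiquitin fusion gene RpS27A and the segregase cofactors Ufd1 and p47 (0 and 1 each). The deubiquitinase Usp14 was called in 2 of each group.

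Other large complexes shared the pattern of samples. Of 88 cytoplasmic ribosomal protein genes, 52.3%, 88.6% and 80.7% were called in controls A, B and C and 62.5%, 76.1% and 46.6% in H1 RNAi A, B and C. For 73 mitochondrial ribosomal protein genes these shares were 45.2%, 83.6% and 67.1% in the controls and 50.7%, 67.1% and 34.2% in the H1 RNAi samples. For 33 genes of the vacuolar ATPase they were 36.4%, 60.6% and 57.6% in the controls and 42.4%, 51.5% and 30.3% in the H1 RNAi samples. Control B was the highest and H1 RNAi C the lowest in each of these lists. Over all genes control B was also the highest (53.4%), and control A (29%) and H1 RNAi C (30.3%) were the lowest. The share called in all 6 samples was 34.1%, 26.0% and 24.2% for these complexes in turn, against 15.6% of general proteasome subunits and 22.3% of all genes. Mitochondrial ribosomal protein genes also had lower median percentiles than all genes in all 6 lists (27.4, 46.5 and 41.5 in the controls, 30.5, 35.9 and 33.4 with H1 RNAi). Cytoplasmic ribosomal protein genes did so in every list but control B, and the vacuolar ATPase in every list but control B and H1 RNAi B.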

How the data were processed

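ATAC-seq peak lists of 6 samples, 3 controls and 3 H1 RNAi, were grouped by the titles in the labels. Trim Galore, Bowtie2, Picard and MACS2 with the dm6 build are named per the submitters' processing notes. Their versions and settings, and whether reads were shifted for Tn5, were not given in the sources used here. Each sample has 1 list deposited by the authors, with coordinates, a score, a fold enrichment (ratio) and 2 significance columns, the −log10 p-value and the −log10 q-value, with no pooling of replicates. Fold, score, p and q were used only within a list, to rank or filter peaks, and no peak's height was set against another sample's. Ranks in lists of different length show no change. Fragment coverage at a summit was solved from the deposited fold and p-value and was whole, to within 0.02 fragments, for 99.99% to 100% of solved peaks per list.

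Genes came from the RefSeq table of Release 6, which gives no strand, so the distance to the nearest gene end replaced the distance to the gene start. Peaks were assigned by overlap of 1 bp or more with 500 bp on either side of a gene end. All 48 members were named, with the percentile in every sample for paralogues, for general subunits called in 1 to 5 samples, and for the 3 highest and 3 lowest of those called in 6, which covered all 5. Where several peaks qualified, the highest-ranked was used. The percentiles of a gene can thus come from different ends in different samples. The only test was a two-sided Fisher exact test per gene over samples, with Benjamini-Hochberg adjustment over 13946 genes and a threshold of 0.05. Read totals were not used here. Promoter motifs and sequences were not used here. Alternatives were minimum values for the −log10 q (10) and the fold (4), equal lists of the top 6142 peaks, windows of 250 and 1000 bp, the summit in the window, leaving out each sample and the replicate letter as a block. Giving each peak only to the nearest gene was added after seeing the data. Python 3.11.15, numpy 2.4.6, pandas 2.3.3, scipy 1.17.1 and statsmodels 0.14.6 were used, and the code was tested on simulated data. The members and lists were chosen with earlier results of these data known.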

Additional observations from a re-analysis of the deposited data

How the results depend on the processing

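The control and H1 RNAi groups overlapped in the main setting. The difference for general subunits, H1 RNAi minus control, was −22.9 points with a −log10 q of at least 10, turned to 3.12 under a fold minimum of 4, and ranged from −21.4 to 8.33 when single samples were left out, turning positive without control B or without H1 RNAi C. For paralogues it ranged from −8.33 to −4.17 with samples left out and was −2.08 with the summit in the window and −2.08 with peaks given to the nearest gene alone. General minus paralogue was 19.3 points under the fold minimum and 16.7 with peaks given to the nearest gene, and 41.9 to 52.5 with samples left out. Genes called in all samples of one group and none of the other numbered 36; they were 83 with lists of equal length, 58 with the summit in the window, and 51 to 340 with samples left out, where fewer samples loosen the rule. A fold of at least 4 gave 3 in controls alone and 38 in H1 RNAi alone, against 31 and 5. The mean of median percentiles, 35.3, became 60.6 under the q minimum and 64.7 under the fold minimum, filters that remove low peaks. The mean of median distances from summit to gene end, 287 bp, became 525, 594 and 140 bp with the q minimum, the fold minimum and the window of 250 bp. The causes of the other shifts were not tested. With the replicate letter as a block, the differences (−5.21 and −6.25 points) and the count (36) were the same by construction. The letters are balanced over the groups, so this setting could not change them. Within letters A, B and C, the share of general subunits called differed by 28.1, −6.25 and −37.5 points, H1 RNAi minus control. Deviations of same-lettered samples correlated at 0.0645, 0.308 and −0.153 over 13946 genes for A, B and C. Samples of different letters were not correlated in this way, so these values cannot show whether the letters pair the samples. Distance from the gene start and promoter motifs were not run. A gene not called in control A or H1 RNAi C may still be open below detection. Whether depth accounts for their few calls was not tested, since read totals were not used. The solved background did not strictly follow the calls of general subunits. It was 8.28 in H1 RNAi C with 9 calls and 4.83 in H1 RNAi B with 26. Control A, also with 9 calls, had 5.04, and control B, with 28, had the highest value, 20.7.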
